A study of Homo sapiens with 6 samples.

Results

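The genes described here encode the ligands of NKG2D, an activating receptor of natural killer (NK) cells and of many killer T cells. They are 8 protein-coding genes on chromosome 6: RAET1E (also called ULBP4), RAET1G (ULBP5), ULBP2, ULBP1, RAET1L (ULBP6) and ULBP3 in a cluster on the long arm, and MICA and MICB in the major histocompatibility complex (MHC) on the short arm. They were taken as a family out of 20037 protein-coding genes, and RAET1G was chosen by its measured pattern in these lists, namely peaks within 1 kb of a gene end (the gene-end window) in all libraries of simulated microgravity (SMG) and none of normal gravity (NG), so that this pattern is given as a description without a test. A peak belonged to a gene if it overlapped the RefSeq span of the gene extended by 20 kb to each side, which gave windows of 46.2 to 56.2 kb. Neighbouring windows overlap, so a peak can count for a pair of genes, and the members do not give independent values.

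NKG2D ligands are distant relatives of MHC class I molecules that do not present peptides to T cells. Healthy cells carry few of them, while infection, transformation, DNA damage and heat stress can bring them to the surface, where they mark the cell for killing. Leukaemic cells, among them T-cell leukaemias, are known to carry some of these ligands and to release others in soluble form.

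ATAC-seq was used, an assay that marks open chromatin through a transposase that cuts accessible DNA and adds adapters to it. The nuclei came from Jurkat cells, a line grown from a human T-cell leukaemia, and the labels name no edited gene and no drug. In 3 libraries (SMG 1, SMG 2 and SMG 3) the nuclei were under simulated microgravity, made per the labels by a random positioning machine that turned the nuclei at 30 degrees per second for 30 min, and 3 libraries (NG 1, NG 2 and NG 3) were kept at normal gravity. All 6 libraries were made from 50000 cells each, with lysis for 3 min and transposition for 30 min at 37 °C. The labels give the turning after the nuclei had been put into the transposase mix, so rotation and transposition may have run together. Nuclei and not intact cells were turned, and expression of the genes was not measured.

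The deposited list of each library held 42222, 42399 and 39624 peaks in SMG 1, SMG 2 and SMG 3, against 37782, 43713 and 40601 in NG 1, NG 2 and NG 3. The lists give no read counts, and NG 1 is the shortest list. A missing peak says that the authors' threshold was not passed there, not that chromatin was closed. SMG 3 is also the list whose peak names contain "normalized", a word that no label explains. Gene-end peaks were called in all 6 libraries at 11 of 12 T cell markers, among them CD3E, CD2 and LCK, and in 0 libraries at each of 8 NK cell markers, where 39.7% of all protein-coding genes had none. Of 7 B cell markers 1 (BLK) and of 8 myeloid markers 1 (CD68) had gene-end peaks in each of the 6 libraries, where 46.6% of all protein-coding genes did.

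Around the 8 genes 94 peaks were called in all, 16, 17 and 18 in SMG 1, SMG 2 and SMG 3 and 12, 17 and 14 in NG 1, NG 2 and NG 3. The mean was 17.0 ± 1.00 peaks under simulated microgravity and 14.3 ± 2.52 at normal gravity (SD, n = 3 each), and the groups overlapped, since NG 2 was as high as SMG 2. Merging peaks that overlap by at least 1 bp gave 24 regions, and all 6 libraries held 9 of them (37.5%), while 8 were held by 2 to 5 libraries and 7 (29.2%) by 1 library. Over the whole genome 34.6% of regions were held by all 6 libraries and 34.9% by 1 library. Of the 24 regions 1, at the RAET1G start, was held by all SMG and no NG libraries, as were 0.411% of regions over the genome, and 0 the reverse, as were 0.26%. RAET1G was picked for this pattern, so nothing is read from the presence of that region. Of the 8 regions held in part, 4 were found in more SMG than NG libraries and 4 in fewer. Of the 7 regions held by a single library, 6 were found in an SMG library and 1 in an NG library, where 47.6% of the 24310 such regions of the genome were found in an SMG library. Most of the 6 came from SMG 3, namely those at MICB, within RAET1K and on both sides of ULBP3. The others were weak calls at RAET1E in SMG 1 and in SMG 2, at score percentiles of 6.11 and 4.89. Scores below are percentiles of the −log10 q-value within a library's own list, where 100 is the strongest peak, because the values themselves move with depth.

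**Figure D1:**
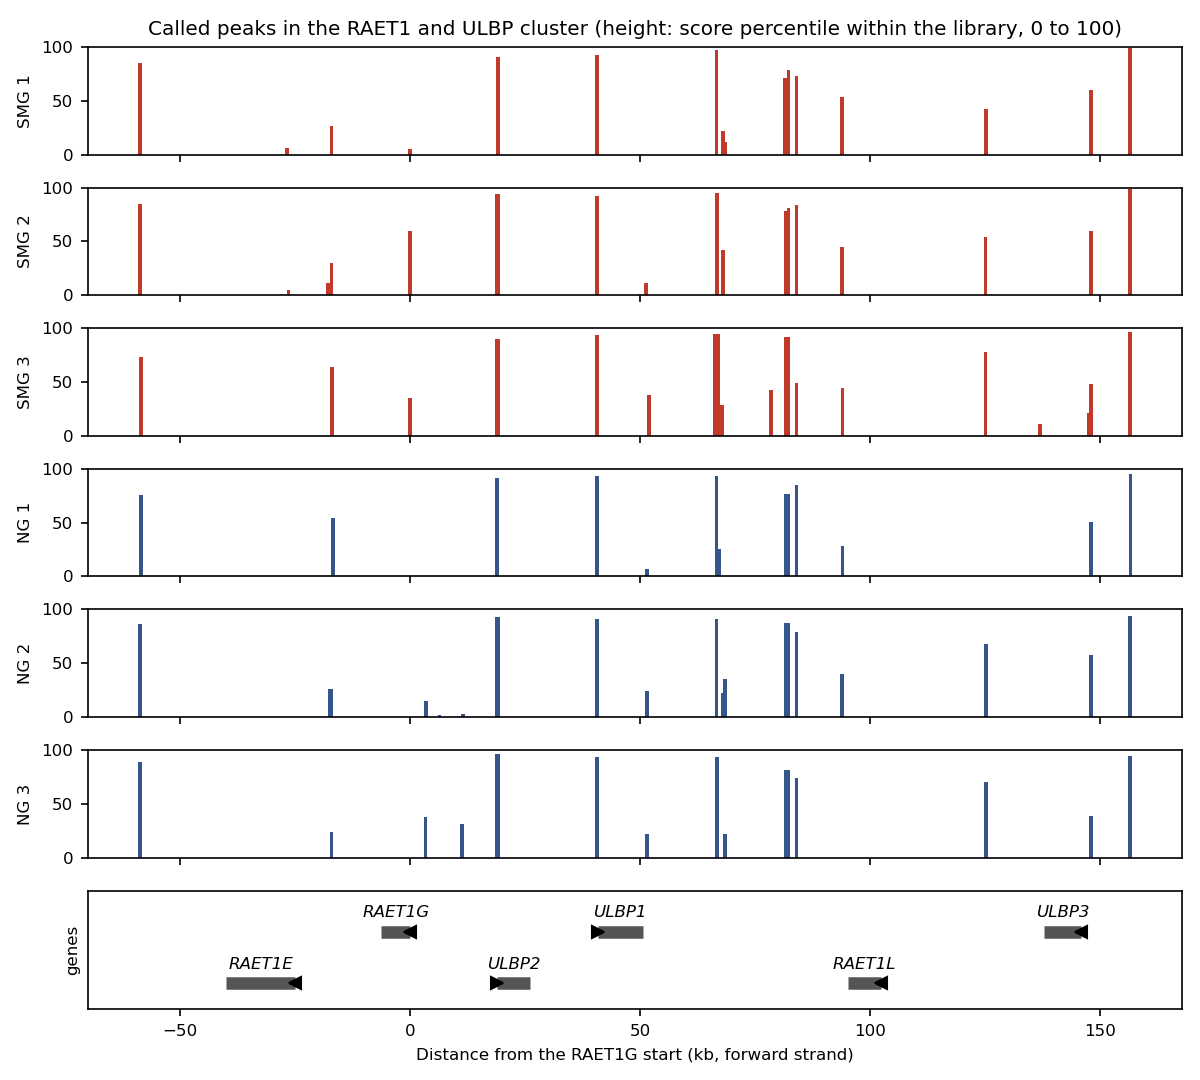
Called peaks in the RAET1 and ULBP cluster, 1 track per library (SMG in red, NG in blue); the x axis is the distance from the RAET1G start in kb and the height of a bar is the score percentile of the peak in its library. Grey bars mark the genes and arrowheads their starts. Strong peaks stood at the starts of ULBP2 and ULBP1, between ULBP1 and RAET1L and upstream of ULBP3 in all 6 libraries, while the peak at the RAET1G start was called in the 3 SMG libraries.

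ULBP1 and ULBP2, ligands tethered to the membrane by a lipid (GPI) anchor and named for binding the UL16 protein of cytomegalovirus, had high-ranking promoter peaks in both conditions, where 44.9% of genes with a promoter window had a peak in all 6 libraries. Their promoter windows, 250 bases before to 50 bases after the gene start, are shown because they are the reference for an open promoter in this family. Sequences are from RefSeq (GRCh38.p14), 5′ to 3′ on the strand of the gene. Capitals mark matches to a fixed set of motifs on either strand: the GC box GGGCGG, the CCAAT box CCAAT, the E2F sites TTTCCCGC and TTTGGCGC, the heat shock element, the E box CACGTG, the AP-1 site TGANTCA, the ETS site ACCGGAAG and the TATA box TATAAA.
ULBP2, chr6:149941764-149942063, plus strand: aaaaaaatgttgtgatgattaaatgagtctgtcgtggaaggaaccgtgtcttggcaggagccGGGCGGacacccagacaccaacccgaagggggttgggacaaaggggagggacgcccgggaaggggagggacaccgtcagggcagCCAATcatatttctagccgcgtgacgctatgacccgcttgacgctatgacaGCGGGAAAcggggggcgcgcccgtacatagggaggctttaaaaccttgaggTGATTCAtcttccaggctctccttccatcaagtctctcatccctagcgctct
ULBP1, chr6:149963693-149963992, plus strand: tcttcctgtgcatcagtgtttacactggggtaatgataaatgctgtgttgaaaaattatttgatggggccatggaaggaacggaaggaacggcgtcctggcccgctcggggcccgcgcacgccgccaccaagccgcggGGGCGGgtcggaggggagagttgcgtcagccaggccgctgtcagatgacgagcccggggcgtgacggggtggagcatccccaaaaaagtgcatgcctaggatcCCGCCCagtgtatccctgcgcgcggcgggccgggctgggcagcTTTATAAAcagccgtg

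Peaks covered the whole promoter window of ULBP2 in every library, at score percentiles of 90.4, 93.8 and 90.4 in SMG 1, SMG 2 and SMG 3, against 91.3, 92.7 and 95.95 in NG 1, NG 2 and NG 3. Their summits lay between positions −121 and −20, where negative positions are upstream of the start. The fold enrichment over local background, as deposited, was 7.39, 8.92 and 7.84 in the SMG libraries and 8.54, 8.77 and 10.4 in the NG libraries. Neither the percentiles nor the fold enrichments separated the groups at ULBP2. A peak also covered the whole promoter window of ULBP1 in every library, at percentiles of 92.4, 92.5 and 93.3 in SMG 1, SMG 2 and SMG 3, against 93.1, 91.3 and 93.8 in NG 1, NG 2 and NG 3. The 6 percentiles of ULBP1 spanned 91.3 to 93.8, and the groups overlapped. Its fold enrichment was 8.72, 9.23 and 9.16 in the SMG libraries and 9.47, 9.27 and 9.75 in the NG libraries, so that every SMG value was below every NG value by fold enrichment and not by percentile. In both genes the summit pileup, the number of overlapping reads or fragments at the summit that MACS2's formulas recover from the deposited values, was 63 or more in all libraries but NG 1, where it was 47 at ULBP2 and 49 at ULBP1.

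In these windows ULBP2 held 1 GC box, 1 CCAAT box, 1 E2F site (TTTCCCGC) and 1 AP-1 site, and ULBP1 held 2 GC boxes and 2 overlapping matches to the TATA box, which lie after the start. Among 22199 promoter windows of protein-coding genes, 56.3% held a GC box, 34.7% a CCAAT box, 9.47% a TATA box, 6.15% the AP-1 site and 1.99% this E2F site. A match is a description of the letters and not evidence of binding. The share of G and C was 56.7% in the ULBP2 window and 62.7% in that of ULBP1, where the median window had 62.3%.

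RAET1G, which encodes the ligand ULBP5, had a peak over its start in all 3 SMG libraries and in no NG library. It is shown as the promoter whose called peaks differed between the conditions.
RAET1G, chr6:149923072-149923371, minus strand: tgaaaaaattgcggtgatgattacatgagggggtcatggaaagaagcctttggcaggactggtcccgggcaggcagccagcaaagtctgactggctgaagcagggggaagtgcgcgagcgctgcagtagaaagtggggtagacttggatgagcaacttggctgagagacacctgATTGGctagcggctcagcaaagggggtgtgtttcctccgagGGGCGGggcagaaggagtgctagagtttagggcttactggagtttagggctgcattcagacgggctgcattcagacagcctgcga

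The window holds 1 CCAAT box (in reverse, ATTGG) and 1 GC box. The peak lay at 149922854 to 149923255 in SMG 1, 149922883 to 149923286 in SMG 2 and 149922990 to 149923308 in SMG 3, and covered 184, 215 and 237 of the 300 bases of the window. The 3 summits lay at positions −55, −54 and −52 from the start, between the CCAAT box, whose first base is at −76, and the GC box, whose first base is at −35. The SMG libraries thus placed the summit within a few bases of each other.

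The strength of the RAET1G peak differed widely among the 3 SMG libraries. Its score percentile was 5.31 in SMG 1, 59.3 in SMG 2 and 35.4 in SMG 3, and no peak was called in NG 1, NG 2 or NG 3. The fold enrichment was 3.09, 5.67 and 4.68, the −log10 q-value 2.55, 11.6 and 6.48, and the recovered summit pileup 14, 27 and 18 reads or fragments over a local background of 3.86, 3.94 and 3.06. SMG 1 thus stood among the weakest peaks of its list, and at a −log10 q-value of at least 5 the peak was left in SMG 2 and SMG 3 alone. Across protein-coding genes, called gene-end peaks were limited to the 3 SMG libraries, with each of them holding one, at 20 genes (0.0998%), and to the 3 NG libraries likewise at 20 (0.0998%). In the narrower promoter windows, which 15843 genes had, 12 (0.0757%) had the peak in every SMG library and in no NG library and 11 (0.0694%) the reverse. RAET1G was picked for this pattern, so nothing is read from its being among them. Of the other 7 members, 0 had such a pattern in either direction, in either window. With flanks of 20 kb, 0 of 8 members had it, as did 0.0898% of all genes for SMG and 0.0848% for NG.

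**Figure D2:**
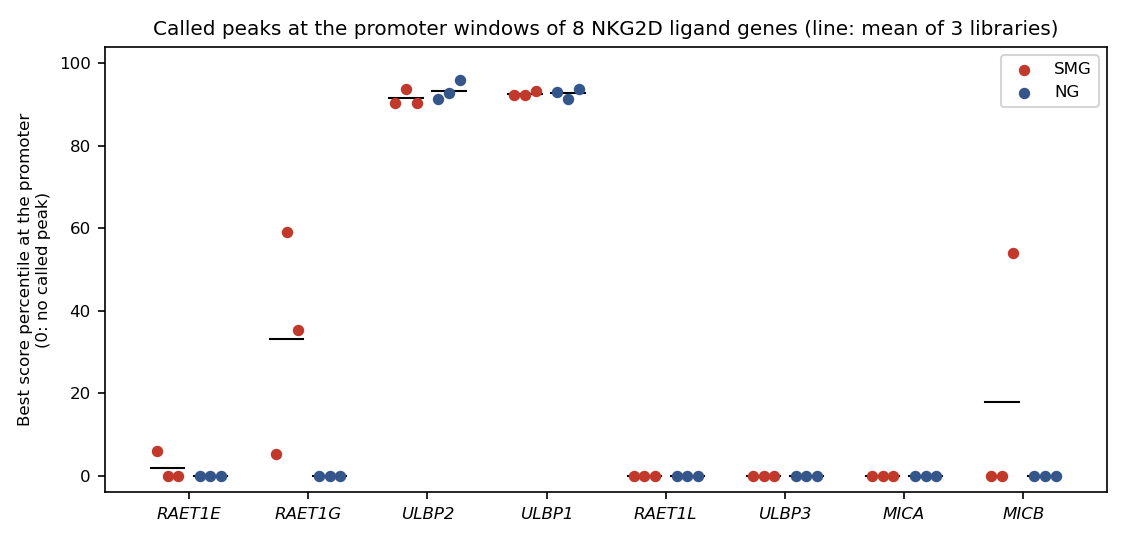
Best score percentile (0 to 100) of a peak that overlaps the promoter window of each of the 8 genes, with 1 point per library (SMG red, left; NG blue, right) and a line at the mean of 3 libraries; 0 means that no peak was called. ULBP2 and ULBP1 stood above 90 in all 6 libraries, RAET1G had points at 5.31, 59.3 and 35.4 in SMG and at 0 in NG, and the other 5 genes had a peak in 1 library or none.

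Between the RAET1G start and the region at the ULBP2 start, which all 6 libraries held, peaks were called in NG libraries alone. A region at 149926255 to 149926716, centred at −3.36 kb from the start, had a peak in 0 SMG libraries and in NG 2 and NG 3, at percentiles of 14.96 and 38.2. A region at 149934278 to 149934654, over the promoter window of the long noncoding RNA gene LOC105378052, was also called in 0 SMG libraries and in NG 2 and NG 3, at 2.63 and 31.35, and a further one at 149929303 to 149929668 in NG 2 alone, at 1.96. No peak at these 3 regions stood above a percentile of 38.2, and NG 1 had none of them. With these regions counted, the whole window of RAET1G held 3, 4 and 3 peaks in SMG 1, SMG 2 and SMG 3, against 2, 5 and 4 in NG 1, NG 2 and NG 3. The mean was 3.33 ± 0.577 peaks in SMG and 3.67 ± 1.53 in NG libraries (SD, n = 3 each), so that the window as a whole did not separate the groups. Within the span of the gene alone the mean difference was 1.00 peak in the other direction, which is the peak at the start.

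The genes whose gene-end percentiles over the 6 libraries lay closest to those of RAET1G, by root mean square distance with 0 for no peak, were CXXC5 (3.485 percentile points), LOC128125817 (7.37), ANKH (9.21), CLMP (9.83) and UPK2 (9.99). CLMP had the peak in the 3 SMG libraries, at 4.61, 39.1 and 22.2, and in no NG library. CXXC5, LOC128125817 and UPK2 had 0 in SMG 1, and ANKH and UPK2 had weak peaks in NG 2 (8.03 and 1.66).

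RAET1E, a ligand with a membrane-spanning segment, had no strong peak of its own. RefSeq gives it 3 starts. A peak in SMG 1 (149896226 to 149896425, percentile 6.11) overlapped the promoter window of its second start, which it shares with the read-through gene RAET1E-LRP11, and a separate peak in SMG 2 (149896458 to 149896866, percentile 4.89) was centred at −0.532 kb from that start. SMG 3, NG 1, NG 2 and NG 3 had neither. These are at the weak end of both lists. The strongest region in its window, at 149863886 to 149865030, overlapped the promoter window of LRP11, a neighbouring gene, and was held by all 6 libraries at percentiles of 85.3, 84.6 and 73.0 in SMG 1, SMG 2 and SMG 3, against 75.3, 86.2 and 88.8 in NG 1, NG 2 and NG 3. A region between RAET1E and RAET1G, at 149905141 to 149906446 over the pseudogene LOC100240714, was also held by all 6 libraries, at 26.9, 30.1 and 63.8 in the SMG libraries against 53.9, 26.2 and 23.8 in the NG libraries. The groups overlapped at both regions. The window of RAET1E held 3, 4 and 2 peaks in SMG 1, SMG 2 and SMG 3 and 2 in each NG library (exact permutation p = 0.4, two-sided, adjusted p = 1 over all genes, Benjamini-Hochberg).

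RAET1L and ULBP3, both GPI-anchored ligands, had no peak over their promoter windows in any of the 6 libraries, but open regions at some distance. Their windows are shown beside those of ULBP2 and ULBP1, as close relatives without a called promoter peak.
RAET1L, chr6:150025483-150025782, minus strand: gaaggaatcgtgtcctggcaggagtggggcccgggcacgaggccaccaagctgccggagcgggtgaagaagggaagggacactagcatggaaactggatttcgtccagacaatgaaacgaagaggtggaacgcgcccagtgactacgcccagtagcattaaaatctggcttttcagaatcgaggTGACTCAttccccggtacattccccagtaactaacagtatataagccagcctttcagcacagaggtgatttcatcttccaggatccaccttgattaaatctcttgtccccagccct
ULBP3, chr6:150069072-150069371, minus strand: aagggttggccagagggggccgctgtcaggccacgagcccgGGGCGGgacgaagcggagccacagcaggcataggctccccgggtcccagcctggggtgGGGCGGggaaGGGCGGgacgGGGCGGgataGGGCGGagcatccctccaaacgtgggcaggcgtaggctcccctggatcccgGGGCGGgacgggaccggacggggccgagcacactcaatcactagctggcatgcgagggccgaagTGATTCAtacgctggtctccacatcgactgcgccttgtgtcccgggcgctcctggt

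ULBP3 held 6 GC boxes and had the highest share of G and C of the family (70.7%), yet no promoter peak was called, while 43.0% of all protein-coding genes with a window also had none in any library. RAET1L held 0 GC boxes and 1 AP-1 site and had 52.7% G and C. In global alignments over their whole length, ULBP2 was 51.7% identical to RAET1G, 50.8% to ULBP3 and 50.3% to RAET1L. These values are little above those of pairs such as MICB and RAET1E (48.0%), and the lowest was 38.9% (ULBP1 and RAET1L). The closest pair of promoter windows in the family was MICA and MICB, at 77.85%. Where copies are alike, reads may be placed on either, and the labels do not say how such reads were treated.

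The strongest region of the whole family lay at −10.5 kb from the start of ULBP3, at 150079140 to 150080119, outside the span of any member. Its score percentile was 98.7, 98.5 and 96.05 in SMG 1, SMG 2 and SMG 3, against 95.6, 94.0 and 94.4 in NG 1, NG 2 and NG 3. In regions held by all 6 libraries, neither group had the tighter summits throughout. The spread was 307 bp in SMG and 254 bp in NG libraries at the ULBP1 start, and 31 and 101 bp at the ULBP2 start. At the region upstream of ULBP3 it was 2 bp in SMG and 133 bp in NG libraries. The fold enrichment was 14.3, 14.8 and 11.3 in the SMG libraries and 11.6, 10.9 and 11.9 in the NG libraries, so that the groups were apart by percentile and overlapped by fold enrichment. A weaker region at −2.02 kb from the start of ULBP3 (150070903 to 150071382) stood at 60.3, 59.9 and 48.3 in the SMG libraries, against 50.6, 57.3 and 38.5 in the NG libraries, with overlap. A region at 150048087 to 150048731, past the far end of ULBP3, was called in all SMG libraries (42.2, 54.1 and 77.7) and in NG 2 and NG 3 (67.5 and 70.3), but not in NG 1.

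A further strong region lay in the interval between ULBP1 and RAET1L, 25.8 kb after the start of ULBP1, at 149989042 to 149990494. It stood at percentiles of 97.3, 95.05 and 94.7 in SMG 1, SMG 2 and SMG 3, against 93.4, 91.2 and 93.2 in NG 1, NG 2 and NG 3, again without overlap by percentile. This region lies in no annotated gene span. Its fold enrichment was 10.1, 9.21 and 8.16 in the SMG libraries and 8.68, 8.32 and 9.02 in the NG libraries, with overlap. The best peak at this region was 773, 801 and 1453 bp wide in the SMG libraries and 414, 524 and 652 bp wide in the NG libraries. In NG 1 the region was called as 2 peaks, the second 244 bp wide. Together they ran from 149989545 to 149990459, so by outer ends NG 1 was not narrower than SMG 1 or SMG 2. At the region upstream of ULBP3 the widths were 860, 834 and 980 bp in the SMG libraries and 612, 828 and 599 bp in the NG libraries. By the width of the best peak, these 2 of the 9 regions held by all 6 libraries (22.2%) had every SMG value above every NG value. The reverse held for 0, against 7.47% and 2.57% over the genome. Of the 9 regions held by all 6 libraries, 2 (22.2%) had every SMG percentile above every NG percentile and 0 the reverse. Over the genome this was so for 5.34% of 24103 such regions, and 5.06% had the reverse. Ranked by fold enrichment within each list, 1 of the 9 (11.1%), the region upstream of ULBP3, had every SMG value above every NG value and 0 had the reverse, against 5.23% and 5.3% over the genome. By fold enrichment itself 0 of the 9 had every SMG value above, against 4.13% over the genome, and 1, at the ULBP1 start, had every SMG value below, against 5.82%. Percentiles come from lists of different lengths and are no measure of change, and the members were chosen with earlier results known, so no test was made.

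**Figure D3:**
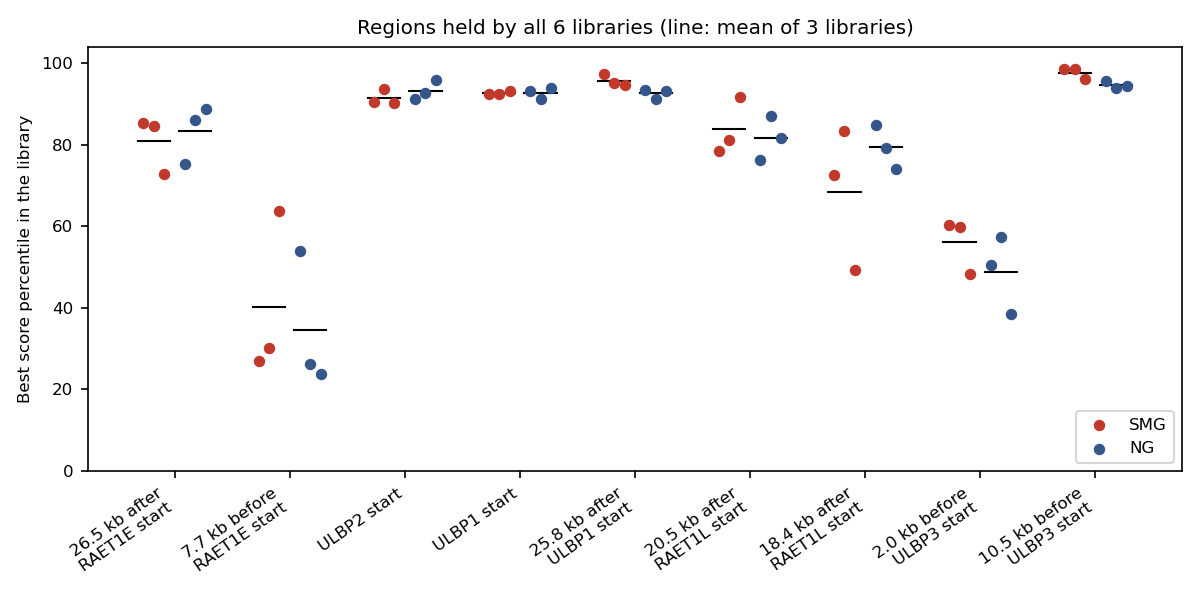
Best score percentile (0 to 100) in each library for the 9 regions around the NKG2D ligand genes that all 6 libraries held, named by their distance in kb from the nearest member start; points are libraries (SMG red, left; NG blue, right) and lines are means of 3. The regions 25.8 kb after the ULBP1 start and 10.5 kb before the ULBP3 start had every SMG point above every NG point, and the groups overlapped at the other 7.

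Around RAET1L the regions lay outside its span, over the pseudogene RAET1K or in no annotated gene span. A region at 150004412 to 150005714 overlapped RAET1K, a transcribed pseudogene of the family, at percentiles of 78.4, 81.2 and 91.8 in SMG 1, SMG 2 and SMG 3, against 76.4, 87.1 and 81.7 in NG 1, NG 2 and NG 3. A region at 150006918 to 150007387 stood at 72.7, 83.5 and 49.2 in the SMG libraries and 84.8, 79.3 and 74.1 in the NG libraries. Both overlapped between groups. A region at 150016936 to 150017348, just past the far end of RAET1L, was called in all SMG libraries (53.6, 44.6 and 44.2) and in NG 1 and NG 2 (28.2 and 40.1), but not in NG 3. Only in NG 1 did its peak reach the gene-end window of RAET1L.

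The number of peaks in the RAET1L window was 4 in each of SMG 1, SMG 2 and SMG 3, against 3, 3 and 2 in NG 1, NG 2 and NG 3, the single case among the 8 members in which the groups did not overlap. The mean difference was 1.33 peaks (exact permutation p = 0.1, two-sided, the smallest that 3 against 3 libraries allow, adjusted p = 1 over all genes, Benjamini-Hochberg). Every SMG library stood above every NG library at 256 of all protein-coding genes (1.28%) and below at 127 (0.634%). In SMG 1 and SMG 2 the region over RAET1K was called as 2 peaks and in the other 4 libraries as 1, while SMG 3 held a further peak within RAET1K (percentile 43.0). Counted as regions held instead of peaks, a choice made after the data were seen, RAET1L no longer separated the groups and 0 of 8 members did. Over all 20037 protein-coding genes 219 then had every SMG library above and 114 below, so 0 of 8 is no result about the members.

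The windows of 6 members held peaks in all 6 libraries, as did those of 75.4% of all genes. Beside RAET1L, these windows did not separate the groups by number of peaks. ULBP2 had 3 peaks in each SMG library and 2, 5 and 4 in NG 1, NG 2 and NG 3 (exact permutation p = 0.7, two-sided). ULBP1 had 4 in each SMG library and 4, 5 and 4 in the NG libraries (exact p = 1). ULBP3 had 3, 3 and 5 in SMG 1, SMG 2 and SMG 3 and 2, 3 and 3 in the NG libraries (exact p = 0.6). The adjusted p was 1 for each. No label states whether the replicates are independent cultures. The p-values therefore refer to the spread among these libraries, which may be technical.

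**Figure D4:**
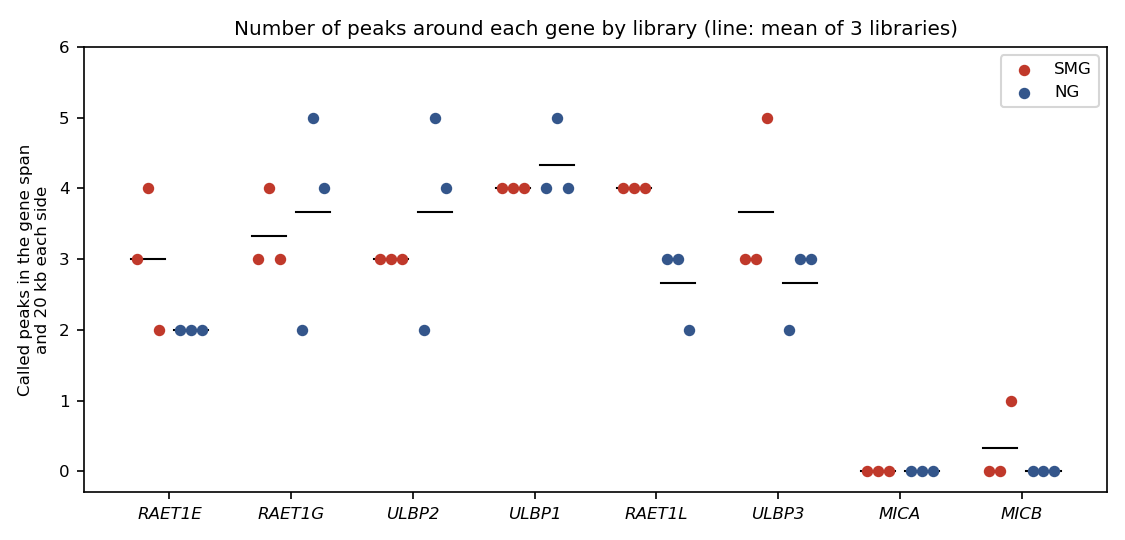
Number of called peaks in the span of each gene and 20 kb to each side, with 1 point per library (SMG red, left; NG blue, right) and a line at the mean of 3 libraries. RAET1L had 4 peaks in every SMG library, above all NG libraries; MICA had 0 in all 6 libraries and MICB 1 in SMG 3.

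MICA and MICB, stress-induced ligands that span the membrane and resemble MHC class I heavy chains, stood apart from the cluster in having almost no called peaks. MICA had 0 peaks in its window in each of the 6 libraries, and the nearest peak lay 43.3 to 43.6 kb from its span. MICB had 1 peak in SMG 3 and none in SMG 1, SMG 2, NG 1, NG 2 or NG 3. That peak covered 286 of the 300 bases of its promoter window, which is shown for this reason.
MICB, chr6:31497895-31498194, plus strand: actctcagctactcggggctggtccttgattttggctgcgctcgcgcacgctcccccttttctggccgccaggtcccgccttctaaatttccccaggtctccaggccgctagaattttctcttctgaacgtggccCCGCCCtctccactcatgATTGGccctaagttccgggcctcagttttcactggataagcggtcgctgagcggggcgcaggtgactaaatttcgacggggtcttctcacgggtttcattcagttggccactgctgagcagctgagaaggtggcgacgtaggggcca

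The SMG 3 peak of MICB (31497862 to 31498180) had a percentile of 54.1, a fold enrichment of 6.94, a −log10 q-value of 9.997 and a summit at position −128 from the start, in a window with 1 GC box and 1 CCAAT box. It was thus not a borderline call in its own list, but it stood in 1 of 6 libraries. The MICB start lies 3.23 kb inside its RefSeq span and that of MICA 2.88 kb inside its own, so a window at the gene ends does not see either promoter. The heat shock element letters searched here were found in 0 promoter windows of the 8 genes and in 0.405% of all windows.

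Few peaks were called in the MHC as a whole. From HLA-F to HLA-DPB1 (29723434 to 33089696) the density was 8.62, 9.51 and 11.9 peaks per Mb in SMG 1, SMG 2 and SMG 3 and 7.43, 11.0 and 9.21 in NG 1, NG 2 and NG 3. On the rest of chromosome 6 it was 14.5, 14.8 and 13.0 in the SMG libraries and 13.5, 15.3 and 14.2 in the NG libraries. All 6 libraries had a gene-end peak at 21 of 128 protein-coding genes in this MHC span (16.4%), a comparison added after the values were seen, against 473 of 921 (51.4%) on the rest of chromosome 6. The lists also hold 187, 175 and 251 peaks on alternate contigs of chromosome 6 in SMG 1, SMG 2 and SMG 3, against 118, 204 and 177 in NG 1, NG 2 and NG 3. SMG 3, the library with the MICB peak, had the most peaks in the MHC and on these contigs. The part of read placement between the chromosome and the alternate contigs in the absence of MICA and MICB peaks was not tested. The RAET1 and ULBP cluster held 70.8, 75.2 and 75.2 peaks per Mb in the SMG libraries and 53.1, 75.2 and 62.0 in the NG libraries. Its span of 0.226 Mb was drawn around member genes and their flanks. The MHC span of 3.37 Mb and the rest of the chromosome were taken whole, so these densities come from unlike spans.

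**Figure D5:**
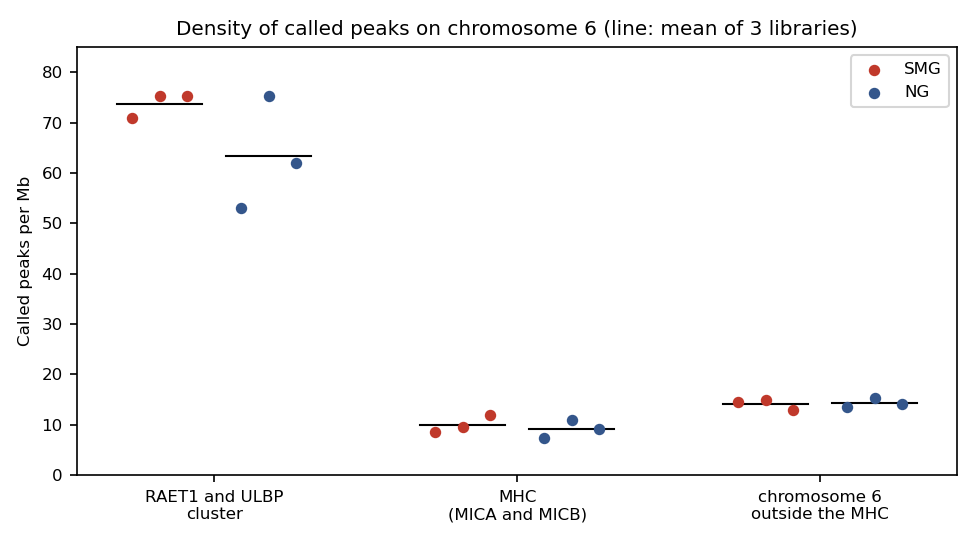
Called peaks per Mb in the RAET1 and ULBP cluster with its 20 kb flanks, in the MHC span that holds MICA and MICB, and on chromosome 6 outside the MHC span; points are libraries (SMG red, left; NG blue, right) and lines are means of 3. The cluster had 53.1 to 75.2 peaks per Mb and the MHC 7.43 to 11.9, the latter below the rest of the chromosome in each of the 6 libraries. The spans are unlike, since that of the cluster is short and was drawn around genes.

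By the mean number of peaks in a 20 kb window, ULBP1 stood above 83.8% of all protein-coding genes, RAET1G above 76.1%, ULBP2 and RAET1L above 73.6% each, ULBP3 above 70.6%, RAET1E above 59.2%, MICB above 11.2% and MICA above 0%. The median gene had 2 peaks in its window. Longer genes have longer windows, and the overlap of windows inside the cluster lets a peak count for several members. Just inside the outer edges of the cluster lay the LRP11 region, 0.707 to 1.05 kb from the edge, and the region before ULBP3, 9.002 to 9.09 kb from it. The first peaks outside lay 10.6 to 56.5 kb beyond the RAET1E edge, at percentiles of 8.63 to 59.1, and 53.6 to 274.6 kb beyond the ULBP3 edge, at percentiles of 11.8 to 60.2.

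With a gene-end window of 1 kb, 3, 3 and 4 of the 8 members had a peak in SMG 1, SMG 2 and SMG 3, against 3, 2 and 2 in NG 1, NG 2 and NG 3. The mean was 3.33 ± 0.577 members in SMG and 2.33 ± 0.577 in NG libraries (SD, n = 3 each), with overlap. ULBP1 and ULBP2 were the 2 members with such a peak in all 6 libraries. Beside them, RAET1G was counted in each SMG library, with a weak peak past the far end of ULBP3 in SMG 3 (percentile 11.1), and the peak past RAET1L counted in NG 1 (28.2). RAET1G was chosen for this pattern, and without it the counts were 2, 2 and 3 in the SMG libraries and 3, 2 and 2 in the NG libraries. Over all protein-coding genes 53.8%, 54.65% and 52.2% had a gene-end peak in SMG 1, SMG 2 and SMG 3, against 50.7%, 55.0% and 54.0% in NG 1, NG 2 and NG 3. With promoter windows, 4, 3 and 4 members had a peak in the SMG libraries and 2 in each NG library. Without RAET1G these counts were 3, 2 and 3 in the SMG libraries and 2 in each NG library, and the groups overlapped. Of all genes with a promoter window, 51.25%, 52.2% and 50.0% had a peak in SMG 1, SMG 2 and SMG 3, against 48.5%, 52.6% and 52.2% in NG 1, NG 2 and NG 3. The members in excess of ULBP1 and ULBP2 were RAET1G in each SMG library, RAET1E in SMG 1 and MICB in SMG 3.

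Genes that act on this pathway were mostly open in both conditions. KLRK1, which encodes the NKG2D receptor, had no gene-end or promoter peak in any library, while HCST, its signalling adaptor DAP10, had both in all 6, at a mean gene-end percentile of 56.3. TYROBP, the adaptor DAP12, had gene-end peaks in each of the 6 libraries (mean percentile 36.6) but none in its promoter window. Of 6 genes of the receptor and its adaptors, 5 had gene-end peaks in each of the 6 libraries, where 46.6% of all protein-coding genes did. Of 5 genes that shed ligands from the surface 3 did, namely ADAM9, ADAM10 and ADAM17, proteases that cut membrane proteins. MMP14, also a membrane protease, had none, and PDIA6, a disulfide isomerase, had a peak in its promoter window in all 6 libraries (mean percentile 50.4) but not at its gene ends.

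All 4 DNA damage kinases, which can raise NKG2D ligands when DNA is broken or replication stalls, had a gene-end and a promoter peak in all 6 libraries, with mean gene-end percentiles of 99.1 for ATM, 93.1 for ATR, 77.5 for CHEK1 and 92.8 for CHEK2. Of 10 transcription factors on the list 8 had gene-end peaks in each of the 6 libraries, among them SP1 (98.35), SP3 (90.3) and E2F3 (93.8). HSF1, the heat shock factor, had one in 1 SMG and 0 NG libraries (percentile 21.01) and E2F2 in 2 SMG and 2 NG libraries. All 6 regulators of RNA and chromatin, DICER1, HDAC1, HDAC2, HDAC3, EZH2 and DNMT1, had gene-end and promoter peaks in all 6 libraries. For comparison, every library held a gene-end peak at 46.6% of protein-coding genes. Where a promoter window was available, the share with promoter peaks in every library was 44.9%. Of the genes in these 5 lists, 0 had a peak at a gene end or promoter in all libraries of 1 condition and none of the other, and 0 had windows whose peak numbers separated the groups. Over all genes the gene-end pattern was held by 0.0998% in each direction, and the promoter pattern by 0.0757% (SMG) and 0.0694% (NG). Window numbers separated the groups at 1.28% (SMG above) and 0.634% (SMG below). With shares this low, 0 in short lists is no result about these genes. Among the marker genes of other lists, 1 of 12 T cell markers had such a promoter pattern, as had 0.0757% of genes with a promoter window. It was CD2, an adhesion receptor of T cells, with a promoter peak in 3 SMG and 0 NG libraries, at a mean percentile of 33.9. Its gene-end peaks were called in all 6 libraries, at a mean percentile of 93.0.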

How the data were processed

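The 6 deposited peak lists, 1 per library, were used as the authors made them, in the narrowPeak layout of MACS2. The submitters' processing notes name MACS2, SAMtools, Bowtie, BWA and FastQC, with hg38 as the build. Versions, settings and the handling of duplicates, read shifts and reads with several matching places are not stated there. Each deposited list holds a score (10 times the −log10 q-value, as a whole number), a fold enrichment (a linear ratio), a −log10 p-value and a −log10 q-value per peak. The deposited score was not used. Depth is unknown, and summit pileups were recovered from the deposited fold and −log10 p-value with MACS2's Poisson formula, which all 94 peaks met within 0.001.

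Gene spans, starts and promoter sequences came from RefSeq (GRCh38.p14), where 8 of 8 members matched. Peaks were joined by any overlap of 1 bp or more (Python 3.11.15, pandas 2.3.3, SciPy 1.17.1, Biopython 1.88). Numbers of peaks per window were compared by exact permutation over all 20037 protein-coding genes with Benjamini-Hochberg adjustment, checked on simulated data. Samples were grouped by their titles. All 8 members are named, and the 5 genes most like RAET1G by root mean square distance. The members and lists were chosen with earlier results of these data known. Alternatives were other windows, placement by centre or summit, a −log10 q of at least 5, union regions, other rankings, each library left out, and a replicate block. The test of score percentiles between groups was left out, since lists differ in length.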

Additional observations from a re-analysis of the deposited data

How the results depend on the processing

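The RAET1G pattern, with a called peak in each SMG library and in none of NG, was the pattern it was chosen for, which leaving out a library cannot end. The count of members with it was 1 with each of the other windows tried and from 1 to 1 without a library. It was lost at a −log10 q of at least 5, where 0 members had it in either window. The count of members whose window peaks separated the groups was 1 (RAET1L) and fell to 0 with 5 kb or 50 kb flanks and with union regions, an alternative added after the data were seen, and ran from 1 to 2 when a library was left out (RAET1E joined RAET1L without SMG 3, and ULBP2, lower in SMG, without NG 1). With the span alone it was 1, and that gene was RAET1G. The mean RAET1G difference of −0.333 peaks turned to 1.00 with the span alone and to 0.333 with 5 kb or 50 kb flanks, at the stricter q or without NG 2, and ran from −1.17 to 0.333 when a library was left out. That of ULBP1 (−0.333) turned to 0.333 with 50 kb flanks and to 0.667 at the stricter q. The cause was not tested. The SMG minus NG difference in members with a gene-end peak was 1.00, 2.33 with 3 kb windows and 0.667 to 1.33 when a library was left out. With the 1 kb window it comes from RAET1G, chosen for this pattern, and is no independent result. With 3 kb windows RAET1G is counted too, but other members also differ. The weak RAET1E peaks of SMG 1 and SMG 2 and the MICB peak of SMG 3 then fall inside. So does the region past the far end of RAET1L, which NG 3 lacked. Shares of all genes per library were not counted at 3 kb.

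Over all genes, windows with every SMG library above numbered 256 and below 127. They were 152 and 84 with the span alone, 182 and 94 with 5 kb flanks, and 370 and 169 with 50 kb flanks. With union regions they were 219 and 114, and at the stricter q 240 and 50. Without a library 389 to 727 were above and 259 to 546 below, where the rule covers fewer libraries. Genes with a gene-end peak in SMG alone or NG alone (20 each) ran from 26 to 71 and from 33 to 70 without a library. For promoter windows (12 and 11) the ranges were 19 to 47 and 17 to 53. By summit they were 54 and 40, and at the stricter q 6 were NG alone.

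Ranked by fold enrichment, the best window peak of RAET1L stood at a mean percentile of 58.0 instead of 84.5, that of RAET1G at 82.5 instead of 92.4 and that of MICB at 69.3 instead of 54.1. Deviations of same-numbered libraries over union regions had correlations of −0.000515, 0.0195 and −0.0106. Other pairs of an SMG and an NG library ran from −0.0236 to 0.0239. These values cannot tell whether the numbers pair the libraries. With the replicate block 1 member (RAET1L) had all 3 differences of 1 sign, which its separated groups fix under any pairing (exact block p = 0.25, the smallest possible). Over all genes SMG was above NG in all 3 pairs at 2.66% and below at 1.34%. The gene-end difference was 1.00 with the block. Depth is unknown and its part was not tested, and the weakest 2000 peaks of a library had summit pileups down to 6 to 8 reads or fragments.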
